A study of Homo sapiens with 12 samples.

Results

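Histone methylation writers and erasers are the enzymes that add methyl groups to histone lysines and arginines and those that take them off again. They were chosen by gene symbol: every probe set that the array annotation maps to 1 gene whose current symbol starts with KDM, KMT, SETD, EHMT, SUV39H, PRMT or NSD, or is EZH1, EZH2 or DOT1L, provided its log2 value averaged 4 or more across the 12 arrays. The rule took 109 of the 19623 probe sets tested, which belong to 50 of 10791 genes. Of these genes 29 were grouped as writers, 15 as erasers and 5 as other SETD proteins. Whether each of these proteins acts on histones was not tested. NSDHL is a sterol enzyme that only shares its first letters with the NSD writers. NSDHL was kept in the counts, as the rule has it, and is described apart.

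A methyl group on a histone changes which proteins bind the nucleosome, not its charge, and its meaning depends on the residue. Methylation of lysine 4, 36 or 79 of histone H3 (H3K4, H3K36, H3K79) is found on active genes. Methylation of H3K9 or H3K27, or of lysine 20 of histone H4 (H4K20), is found largely on silent chromatin. Writers take the methyl group from S-adenosylmethionine. Most work inside complexes, such as COMPASS for KMT2A to KMT2D and Polycomb repressive complex PRC2 for EZH1 and EZH2. Erasers of the KDM1 type use FAD, and those of the jumonji type use iron, oxygen and 2-oxoglutarate.

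The cells were HK-2, a line of immortalized epithelial cells from the proximal tubule of the human kidney. The 4 groups of 3 arrays were a low dose of Aa for 24 h, its control at 24 h, a low dose of Aa for 48 h, and its control at 48 h; control cells received the vehicle. What Aa stands for, how much of it was used and what the vehicle was is not stated in the labels, and all groups share the same line and the same medium with EGF, hydrocortisone, insulin, transferrin and selenite. The labels call the 3 arrays of a group biological replicates without saying what separates the cultures; the p-values below therefore cover the spread among these samples and no more. RNA came from whole wells, in which fewer cells holding a transcript and less of it per cell cannot be told apart.

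All values below are log2 intensities normalised by the submitters with GCRMA, and a change is Aa minus control on that scale. Arrays of the same group correlated at 0.994 to 0.997 over all probe sets, and those of other groups at 0.98 to 0.997, so no array stood apart. The median of all values ran from 2.93 to 3.01 between arrays. The 3′ minus 5′ difference of the actin control probes was 0.82 ± 0.16 with Aa at 24 h, 0.79 ± 0.10 in control at 24 h, 0.90 ± 0.22 with Aa at 48 h and 0.78 ± 0.19 in control at 48 h (SD, n = 3 each). Of the 12 proximal tubule markers with a probe set, 3 passed the filter (SLC3A1, PAX8 and CDH6) and 9 did not, among them LRP2, CUBN and AQP1, while all 7 epithelial markers did. The log2 values of the 12 proximal tubule markers summed to 53.5 to 55.3 with Aa and 55.7 to 56.7 in control at 24 h, and to 51.6 to 54.0 with Aa and 56.4 to 57.2 in control at 48 h. At 48 h all 3 that passed the filter fell by the test. The part of that difference in the results below was not tested. None of the 5 distal nephron and 4 leukocyte markers with a probe set passed the filter, and 1 of 6 endothelial and 3 of 6 fibroblast markers did.

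Each gene is described by its brightest probe set, the one with the highest mean over all arrays. At 24 h, 8 of the 50 genes rose with Aa and 5 fell (26%), beside 22.3% of all 10791 genes called by the same rule, in limma's moderated test with Benjamini-Hochberg adjustment over all probe sets and a threshold of 0.05. At 48 h, 10 rose and 8 fell (36.0%), beside 36.1% of all genes. These shares are near the background at both times. The median change of the 50 genes was 0.09 at 24 h and 0.09 at 48 h, against -0.02 and 0.00 for all genes. Over the 109 probe sets, 20 rose and 9 fell at 24 h (26.6%, background 22.3%), and 28 rose and 14 fell at 48 h (38.5%, background 33.9%). The 3 Aa arrays lay wholly above or below the 3 control arrays in 23 of the 50 genes at 24 h (46.0%, background 40.5%) and in 25 at 48 h (50%, background 48.4%).

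The members with the largest changes were the same at both times. KDM1B, SETD6 and PRMT3 fell most, and SETD4 and KMT2A rose most. Of the genes called at 24 h, 8 were also called at 48 h, 4 up (SETD4, KMT2A, KMT2B and EZH2) and 4 down (KDM1B, SETD6, PRMT3 and PRMT6), each in the same direction. That is 61.5% of the 13 calls at 24 h and 44.4% of the 18 calls at 48 h. The count at 24 h was 22 (13 up, 9 down) with the replicate number as a block, where 40.0% of all genes were called. At 48 h the block gave 26 (13 up, 13 down), where 53.3% of all genes were called. The 24 h count was 8 without control 24 h replicate 3. The genes that rose at 24 h numbered 4 without Aa 24 h replicate 1, Aa 24 h replicate 3, control 24 h replicate 2 or control 24 h replicate 3, and 5 without Aa 48 h replicate 3 or control 24 h replicate 1.

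**Figure D1:**
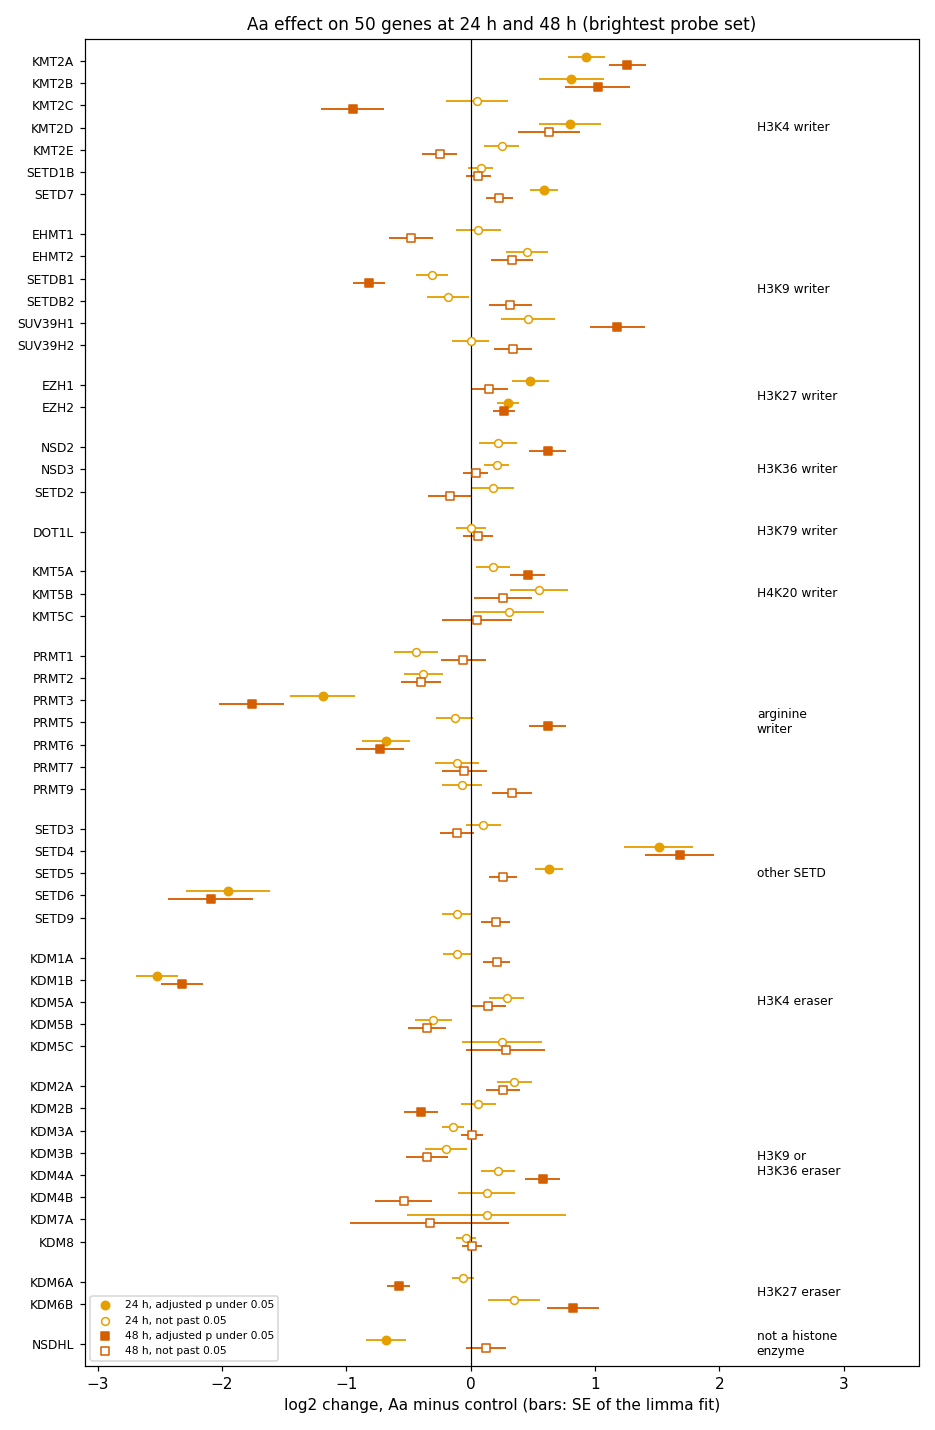
The log2 change with Aa (x axis, Aa minus control) of the brightest probe set of each of 50 genes, grouped by role down the page. Circles are 24 h, squares are 48 h, bars are the standard error of the fit, and filled symbols passed an adjusted p of 0.05. KDM1B, SETD6 and PRMT3 lie farthest to the left at both times and SETD4 farthest to the right.

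Of the 7 genes grouped as writers of H3K4, 4 rose and 0 fell at 24 h, with a median change of 0.59 against -0.02 for all genes. At 48 h 2 rose and 1 fell, with a median of 0.23 against 0.00. With the replicate block 3 rose and 2 fell at 48 h, where 53.3% of all genes were called. Of all genes, 9.96% rose at 24 h and 17.0% at 48 h. KMT2A, KMT2B, KMT2C and KMT2D are large proteins of the MLL family that act in COMPASS complexes. KMT2E was counted in this group by name, and its activity was not tested.

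KMT2A, the MLL1 enzyme that keeps HOX genes active, read 9.96, 9.97 and 9.76 in Aa cells at 24 h, against 9.05, 9.02 and 8.82 in control cells. After 48 h it read 10.12, 9.77 and 9.88 with Aa, against 8.91, 8.68 and 8.38 in control. Every Aa array was above every control array at each time. The change was 0.93 at 24 h (1.91-fold, SE 0.15, limma adjusted p = 0.00148) and 1.26 at 48 h (2.40-fold, SE 0.15, adjusted p = 0.000181). KMT2A has 5 probe sets past the filter, and 3 of them rose at both times. The other two read -0.12 and 0.54 at 24 h and 0.22 and 0.30 at 48 h without passing. The second of them rose at 24 h with the replicate block (adjusted p = 0.0685, and 0.0135 with the block).

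KMT2B, the closest relative of KMT2A, read 8.52, 8.31 and 8.17 with Aa at 24 h, against 7.78, 7.42 and 7.38 in control, a change of 0.81 (SE 0.26, limma adjusted p = 0.0467). At 48 h its values were 8.98, 7.97 and 8.63 with Aa, against 7.92, 7.46 and 7.14 in control, a change of 1.02 (2.03-fold, SE 0.26, adjusted p = 0.0124). The groups did not overlap at either time, and Aa replicate 2 at 48 h was the lowest of its group. KMT2D, which with KMT2C methylates H3K4 at enhancers, averaged 9.01 ± 0.41 with Aa at 24 h and 8.21 ± 0.28 in control (SD, n = 3 each), a change of 0.80 (SE 0.25, limma adjusted p = 0.045). By 48 h the gene averaged 9.11 ± 0.35 with Aa and 8.48 ± 0.33 in control, a change of 0.63 that did not pass (adjusted p = 0.0775, and 0.00735 with the replicate block). Of the 3 KMT2D probe sets 2 rose at 24 h (changes of 0.34 to 0.80). At 48 h 1 dimmer probe set rose, or all 3 with the replicate block (changes of 0.60 to 0.80).

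The call of KMT2B at 24 h ended without any one of the 6 arrays of that time, without Aa 48 h replicate 3 or without control 48 h replicate 2 (limma adjusted p = 0.0567 to 0.146). The 48 h call ended without Aa 48 h replicate 1 (0.0508). The call of KMT2D at 24 h ended without Aa 24 h replicate 1 or 3, Aa 48 h replicate 3, control 24 h replicate 2 or 3, or control 48 h replicate 2 (0.0564 to 0.165).

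KMT2C, the other enhancer enzyme, went the opposite way at 48 h. It read 9.58, 9.71 and 8.87 with Aa at 48 h, against 10.67, 10.39 and 9.96 in control, a fall of 0.95 (1.93-fold lower, SE 0.25, limma adjusted p = 0.0137). The highest Aa array stayed below the lowest control array. At 24 h its values overlapped, with means of 9.76 ± 0.23 in Aa cells and 9.71 ± 0.27 in control cells. All 4 probe sets of KMT2C read lower with Aa at 48 h (-0.47 to -0.95), and 2 of them passed, or all 4 with the replicate block. Without control 48 h replicate 1 the adjusted p was 0.0534.

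SETD7, which places a single methyl group on H3K4 and on many other proteins, rose at 24 h. It read 10.88, 10.72 and 10.91 with Aa at 24 h, against 10.30, 10.26 and 10.17 in control (change 0.59, SE 0.11, limma adjusted p = 0.0036). After 48 h it averaged 10.74 ± 0.17 with Aa and 10.52 ± 0.10 in control, and the change of 0.23 did not pass (adjusted p = 0.137). The difference between the 2 times, -0.36, did not pass either (adjusted p = 0.352). The changes of KMT2E were 0.25 at 24 h and -0.25 at 48 h and did not pass (adjusted p = 0.216 and 0.188, and 0.0201 and 0.0172 with the replicate block). SETD1B, which writes H3K4 trimethylation at promoters, had differences of 0.08 and 0.06 (limma adjusted p = 0.647 and 0.698).

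A list of COMPASS subunits and associated proteins had 14 genes measured, with 6 rises and 1 fall at 24 h (50%, background 22.3%) and 6 rises and 2 falls at 48 h (57.1%, background 36.1%). Their median change was 0.31 at both times, against -0.02 and 0.00 for all genes. With the replicate block 7 rose and 2 fell at 24 h, then 8 rose and 3 fell at 48 h (background with the block 40.0% and 53.3%). The list holds KANSL1, a protein of the NSL complex, which shares WDR5 with COMPASS. Without KANSL1, 5 genes rose and 1 fell at 24 h (median 0.29), and 5 rose and 2 fell at 48 h (median 0.27). RBBP5, a core subunit of every COMPASS complex, averaged 9.01 with Aa and 8.34 in control at 24 h, and 9.16 with Aa and 8.20 in control at 48 h. Its change was 0.67 at 24 h (limma adjusted p = 0.00656) and 0.96 at 48 h (adjusted p = 0.000629). KANSL1 rose by 0.70 and 0.44 (adjusted p = 0.00823 and 0.0456), and BOD1L1, whose role is less well known, by 0.34 and 0.40 (adjusted p = 0.0237 and 0.00708). PAGR1, a subunit particular to the KMT2C and KMT2D complexes, fell at both times. It averaged 6.16 with Aa and 7.45 in control at 24 h (limma adjusted p = 0.00132), and 5.74 with Aa and 6.78 in control at 48 h (adjusted p = 0.00309). WDR5 itself did not pass, with changes of 0.33 and 0.37 (limma adjusted p = 0.299 and 0.21, and 0.0302 at 48 h with the replicate block). PSIP1 (LEDGF), which tethers menin and KMT2A to chromatin, fell by 0.55 at 48 h (adjusted p = 0.0324) and had a difference of -0.53 at 24 h (0.0521, and 0.00188 with the replicate block). The KANSL1 call at 48 h ended without any one Aa 48 h array, control 48 h replicate 2 or 3, Aa 24 h replicate 3 or control 24 h replicate 2 (0.0513 to 0.158). The BOD1L1 call at 24 h ended without Aa replicate 1 or 2 or control replicate 1 or 3 of that time (0.0658 to 0.093), and the PSIP1 call without Aa 48 h replicate 3 or control 48 h replicate 1 or 2 (0.0632 to 0.117).

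Among the erasers of H3K4, KDM1B fell more than any other member on its brightest probe set. Its protein (LSD2) removes mono- and dimethyl marks from H3K4 with FAD as cofactor. KDM1B read 4.82, 4.27 and 4.40 in Aa cells at 24 h, against 7.14, 6.77 and 7.13 in control cells. By 48 h the gene read 4.61, 4.27 and 4.67 with Aa, against 6.94, 6.65 and 6.93 in control. No Aa array was above 4.82, close to the filter value of 4, and no control array was below 6.65. The fall was 2.52 at 24 h (5.72-fold lower, SE 0.17, limma adjusted p = 1.13e-05) and 2.32 at 48 h (5.00-fold lower, SE 0.17, adjusted p = 1.61e-05). Its second probe set lay below the filter, with means of 2.61 with Aa and 2.85 in control at 24 h and 2.58 with Aa and 3.04 in control at 48 h.

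The paralogue KDM1A (LSD1), which works with the corepressor CoREST, averaged 9.89 ± 0.14 with Aa and 10.01 ± 0.07 in control at 24 h, and 9.87 ± 0.14 with Aa and 9.66 ± 0.10 in control at 48 h. Its changes of -0.11 and 0.21 did not pass (limma adjusted p = 0.508 and 0.158). KDM5B, a jumonji eraser of H3K4 di- and trimethylation, had differences of -0.30 and -0.35 without passing (adjusted p = 0.199 and 0.098, and 0.0107 and 0.00315 with the replicate block). Its dimmest probe set of 3 fell by 0.40 at both times (limma adjusted p = 0.0292 and 0.0203). KDM5A had a difference of 0.29 at 24 h (adjusted p = 0.168, and 0.00812 with the replicate block) and 0.14 at 48 h on its brightest probe set. Its other 3 probe sets read -0.12, -0.59 and -0.35 at 48 h, of which the second fell by the test (adjusted p = 0.00759).

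KDM5C, whose gene lies on the X chromosome, gave different answers on its 2 probe sets. The brighter one averaged 7.12 ± 0.30 with Aa and 6.87 ± 0.23 in control at 24 h, and 7.08 ± 0.76 with Aa and 6.80 ± 0.26 in control at 48 h, with overlapping arrays. The dimmer one read 7.39, 6.89 and 6.84 with Aa at 24 h, against 5.08, 5.56 and 5.32 in control, a rise of 1.72 (limma adjusted p = 0.0022). At 48 h it read 7.04, 7.11 and 7.31 with Aa, against 4.62, 5.59 and 4.26 in control, a rise of 2.33 (5.02-fold, adjusted p = 0.000276).

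**Figure D2:**
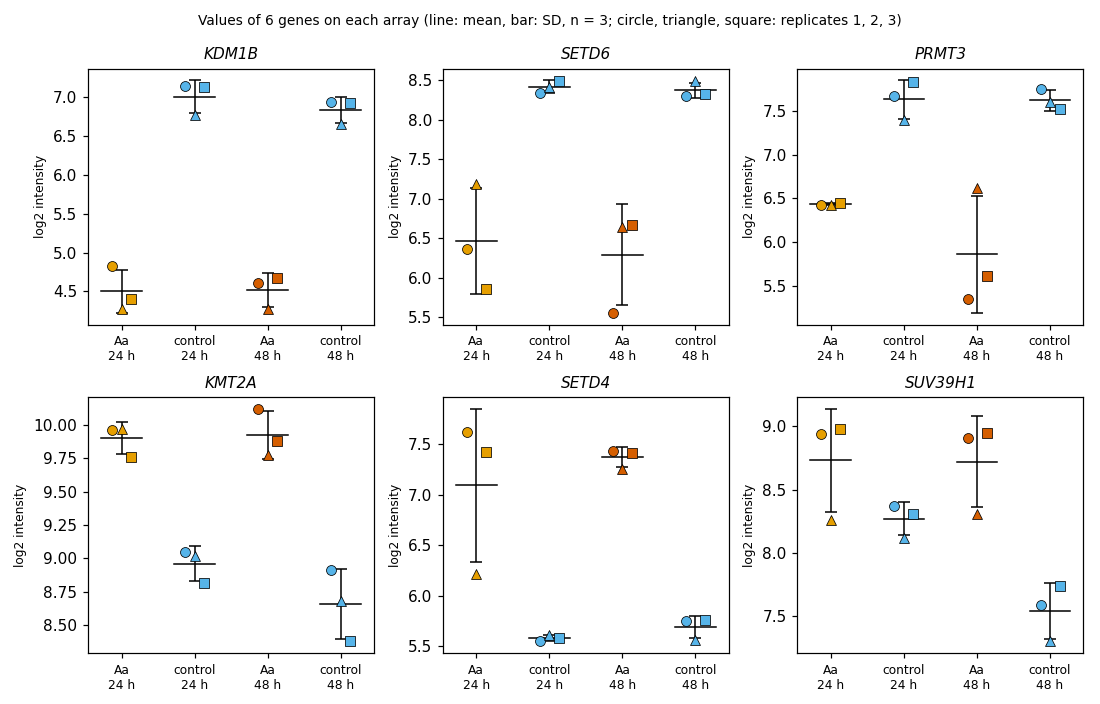
Log2 intensity (y axis, a scale of its own in each panel) of 6 genes on each of the 12 arrays, with Aa left of its control at each time. Horizontal lines are means, bars are SD (n = 3), and circle, triangle and square are replicates 1, 2 and 3. The Aa and control arrays do not overlap in any panel except SUV39H1 at 24 h, and Aa replicate 2 stands apart from the other two in SETD4 at 24 h.

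EZH2 and EZH1 are the catalytic subunits of PRC2, the complex that writes H3K27 methylation. Both rose at 24 h. EZH2 read 10.54, 10.39 and 10.50 with Aa at 24 h, against 10.15, 10.14 and 10.25 in control, a change of 0.30 (1.23-fold, SE 0.09, limma adjusted p = 0.0352). After 48 h it read 10.21, 10.05 and 10.17 with Aa, against 9.92, 9.82 and 9.87 in control, a change of 0.27 (adjusted p = 0.0362). The groups did not overlap, and these are the smallest changes among the members called.

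EZH1 averaged 8.16 ± 0.28 with Aa at 24 h and 7.68 ± 0.11 in control (change 0.48, SE 0.15, limma adjusted p = 0.0464), and 8.0 ± 0.14 with Aa and 7.85 ± 0.20 in control at 48 h (change 0.15, adjusted p = 0.499). Of its 3 probe sets 2 rose at 24 h, the second by 0.76 (adjusted p = 0.0112), and the dimmest read 0.01 (adjusted p = 0.946). The call of the brightest EZH1 probe set ended without Aa 24 h replicate 1 or 3, Aa 48 h replicate 1 or 3, any one control 24 h array or control 48 h replicate 3 (limma adjusted p = 0.0583 to 0.17). The EZH2 call at 24 h ended without Aa replicate 1 or 3 or any one control array of that time (0.0569 to 0.114), and at 48 h without Aa replicate 1 or 3 or any one control array of that time (0.0555 to 0.115).

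The other PRC2 subunits numbered 9, with 2 rises and 2 falls at 24 h, then 2 rises and 3 falls at 48 h (44.4% and 55.6% called, background 22.3% and 36.1%). Their median changes were -0.12 and -0.20, against -0.02 and 0.00 for all genes. With the replicate block 2 rose and 2 fell at 24 h, then 2 rose and 4 fell at 48 h (background with the block 40.0% and 53.3%). EED and SUZ12, the core partners that EZH2 needs for activity, rose with changes of 0.35 and 0.33 at 24 h (limma adjusted p = 0.0289 and 0.0234) and 0.38 and 0.34 at 48 h (adjusted p = 0.016 and 0.0134). PHF19, an accessory subunit that binds methylated H3K36, averaged 10.37 with Aa and 11.21 in control at 24 h, a fall of 0.84 (adjusted p = 0.00238). At 48 h PHF19 fell by 0.55 (adjusted p = 0.0141). The histone chaperone RBBP4 fell by 0.46 and 0.33, and AEBP2, an accessory subunit that binds nucleosomes, fell at 48 h by 0.59 (adjusted p = 0.00308). At 24 h the EED call ended without Aa replicate 1 or 3 or any one control array (0.0562 to 0.108), and the SUZ12 call without Aa replicate 1 or 2 or control replicate 1 or 3 (0.061 to 0.0837). At 48 h the EED call ended without Aa replicate 3 (0.0631), the PHF19 call without Aa replicate 1 (0.0589), and the RBBP4 call without any one Aa array or control replicate 1 or 2 (0.0601 to 0.113).

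The 2 erasers of H3K27 moved in opposite directions at 48 h. KDM6A (UTX), whose gene is on the X chromosome, read 7.48, 7.66 and 7.5 with Aa at 48 h, against 8.06, 8.06 and 8.26 in control, a fall of 0.58 (1.49-fold lower, SE 0.09, limma adjusted p = 0.00121). At 24 h it averaged 7.91 ± 0.04 with Aa and 7.97 ± 0.05 in control. KDM6B (JMJD3), an eraser induced by inflammatory signals in macrophages, read 7.82, 6.88 and 7.17 with Aa at 48 h, against 6.47, 6.41 and 6.53 in control, a rise of 0.82 (1.76-fold, SE 0.21, adjusted p = 0.0137). Of its 4 probe sets 3 rose at 48 h, by 0.82 to 1.76. At 24 h the probe set with the largest of these rises had already risen by 0.69 (adjusted p = 0.0497), while the brightest had a difference of 0.35 (adjusted p = 0.28).

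None of the 6 writers of H3K9 passed at 24 h in limma's test, where 2 were under an unadjusted p of 0.05 and 3 were called with the replicate block (EHMT2 and SUV39H1 up, SETDB1 down). Of all 10791 genes, 3781 were under that p at 24 h and 40.0% were called with the block. At 48 h SUV39H1 rose and SETDB1 fell, and with the replicate block 3 rose and 2 fell, where 53.3% of all genes were called. SUV39H1, which trimethylates H3K9 in pericentric heterochromatin, read 8.91, 8.31 and 8.95 with Aa at 48 h, against 7.59, 7.30 and 7.74 in control, a change of 1.18 (2.27-fold, SE 0.22, limma adjusted p = 0.00272). At 24 h it read 8.94, 8.26 and 8.98 with Aa, against 8.37, 8.12 and 8.31 in control (change 0.46, adjusted p = 0.177, and 0.0105 with the replicate block). The Aa means were 8.72 ± 0.36 at 48 h and 8.73 ± 0.41 at 24 h, and the control means were 7.54 ± 0.22 at 48 h and 8.27 ± 0.13 at 24 h.

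SETDB1, the H3K9 writer recruited by TRIM28 to silence endogenous retroviruses, read 6.66, 7.03 and 6.80 with Aa at 48 h, against 7.74, 7.78 and 7.45 in control, a fall of 0.82 (1.77-fold lower, SE 0.13, limma adjusted p = 0.000835). At 24 h its change was -0.31, with arrays that did not overlap (adjusted p = 0.109, and 0.0332 with the replicate block). Its dimmer probe set read 0.02 and 0.05 and did not pass. EHMT2 (G9a), which mono- and dimethylates H3K9, had differences of 0.45 and 0.33 (adjusted p = 0.0842 and 0.152, and 0.00684 and 0.0186 with the replicate block). The dimmer probe set of EHMT2 read -0.23 and -0.21 and did not pass. EHMT1, the partner of EHMT2, had differences of 0.06 and -0.48 (adjusted p = 0.862 and 0.0613, and 0.012 at 48 h with the replicate block). SUV39H2 had differences of 0.00 and 0.34 (0.0121 at 48 h with the replicate block), and SETDB2 had -0.18 and 0.32, and neither passed. The dimmer probe set of SETDB2 read -0.70 at 24 h and 0.23 at 48 h. It did not pass, but it fell at 24 h with the replicate block.

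The erasers of H3K9 and H3K36 are the KDM2, KDM3, KDM4 and KDM7 enzymes, listed here together with the jumonji protein KDM8. Of these 8 genes none passed at 24 h, where 1 (KDM2A) was under an unadjusted p of 0.05 and none was called with the replicate block. Over all 10791 genes 3781 were under that p at 24 h and 40.0% were called with the block. At 48 h KDM4A rose and KDM2B fell. KDM4A, which removes trimethyl marks from H3K9 and H3K36, read 8.10, 7.80 and 7.96 with Aa at 48 h, against 7.43, 7.42 and 7.25 in control, a rise of 0.58 (1.5-fold, SE 0.14, limma adjusted p = 0.0105). Both of its probe sets rose at that time. KDM2B, a CpG-island-binding eraser of H3K36 dimethylation, read 8.81, 9.14 and 8.82 with Aa at 48 h, against 9.53, 9.21 and 9.22 in control, a fall of 0.40 (SE 0.14, adjusted p = 0.0489). That call ended when any one of the arrays was left out, except Aa 48 h replicate 2 (adjusted p = 0.0501 to 0.166).

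KDM2A, the paralogue of KDM2B, passed only on its dimmer probe sets. The brightest had differences of 0.35 and 0.26 (limma adjusted p = 0.0979 and 0.169), and the second rose by 0.59 at 24 h (adjusted p = 0.00517) and by 0.68 at 48 h (adjusted p = 0.0016). KDM4B, of the same subfamily as KDM4A, averaged 8.33 ± 0.39 with Aa and 8.87 ± 0.34 in control at 48 h, a change of -0.54 that did not pass (adjusted p = 0.0969, and 0.0186 with the replicate block). KDM3A and KDM3B, erasers of H3K9 mono- and dimethylation, had differences of -0.14 and -0.20 at 24 h and of 0.01 and -0.35 at 48 h. KDM7A and KDM8 lay near the filter, with means over all arrays of 4.39 and 4.40. KDM7A had the widest spread of the members, with 4.26, 5.60 and 3.08 in Aa cells at 24 h, and KDM8 had differences of -0.04 and 0.01.

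The writers of H3K36, NSD2, NSD3 and SETD2, did not pass at 24 h on their brightest probe sets, where 1 (NSD3) was under an unadjusted p of 0.05 and none was called with the replicate block. Over all 10791 genes 3781 were under that p at 24 h and 40.0% were called with the block. NSD2, which dimethylates H3K36, rose at 48 h: it read 9.62, 9.51 and 9.82 with Aa, against 8.96, 8.95 and 9.16 in control (change 0.62, SE 0.15, limma adjusted p = 0.0103). Aa cells averaged 9.65 ± 0.16 at 48 h and 9.80 ± 0.25 at 24 h, and control cells 9.02 ± 0.12 at 48 h and 9.58 ± 0.20 at 24 h. The 6 NSD2 probe sets ranged in change from -0.14 to 2.11 at 24 h and from -0.66 to 1.09 at 48 h. The lowest at 48 h did not pass (adjusted p = 0.204, and 0.0433 with the replicate block). NSD3 had differences of 0.21 and 0.04 on its brightest probe set, and 2 of its 4 probe sets rose at 24 h. SETD2, the writer of H3K36 trimethylation behind elongating RNA polymerase, had differences of 0.18 and -0.17 (limma adjusted p = 0.487 and 0.48). DOT1L, the writer of H3K79 methylation, averaged 6.84 ± 0.18 with Aa and 6.84 ± 0.07 in control at 24 h, and 6.83 ± 0.12 with Aa and 6.77 ± 0.11 in control at 48 h.

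KMT5A writes the first methyl group on H4K20, a mark tied to mitosis, and KMT5B and KMT5C add the next ones. KMT5A read 9.78, 9.94 and 9.91 with Aa at 48 h, against 9.40, 9.47 and 9.37 in control, a rise of 0.46 (SE 0.14, limma adjusted p = 0.0258). All 4 of its probe sets rose at 48 h, by 0.46 to 0.63, and none passed at 24 h. The call of the brightest ended without Aa 48 h replicate 2 or 3 or control 48 h replicate 1 or 3 (adjusted p = 0.0628 to 0.0733). KMT5B had a difference of 0.55 at 24 h (adjusted p = 0.118, and 0.00673 with the replicate block) and 0.26 at 48 h on its brightest probe set. Its dimmest probe set read 6.06, 6.03 and 6.09 with Aa at 24 h, against 6.61, 6.81 and 7.43 in control, and fell by 0.89 (adjusted p = 0.0152). The same probe set fell by 1.26 at 48 h (adjusted p = 0.00168). KMT5C had differences of 0.31 and 0.05 and did not pass.

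On their brightest probe sets all 7 arginine methyltransferases among the members had negative changes at 24 h (-0.07 to -1.19). Of these 2 passed and 5 did not, with a median of -0.38 against -0.02 for all genes. With the replicate block 4 fell at 24 h, where 2383 of all 10791 genes fell. Over their 12 probe sets the changes at 24 h ran from -1.19 to 0.33, with a median of -0.12. At 48 h 1 of the 7 genes rose and 2 fell on the brightest probe set, with a median of -0.06. Of all genes, 12.3% fell at 24 h and 19.1% at 48 h. CARM1, an arginine methyltransferase that the symbol rule does not take, had differences of 0.00 and -0.04 (limma adjusted p = 0.996 and 0.925). PRMT3, an enzyme of the cytosol whose best known substrate is a ribosomal protein, read 6.43, 6.43 and 6.45 with Aa at 24 h, against 7.67, 7.39 and 7.83 in control, a fall of 1.19 (2.28-fold lower, SE 0.26, limma adjusted p = 0.0087). By 48 h the gene read 5.35, 6.62 and 5.61 with Aa, against 7.75, 7.60 and 7.52 in control, a fall of 1.76 (3.39-fold lower, SE 0.26, adjusted p = 0.000706). The groups were apart at both times, and Aa replicate 2 was the highest Aa array at 48 h.

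PRMT6, the main writer of asymmetric dimethylation on arginine 2 of histone H3, read 8.16, 7.59 and 8.21 with Aa at 24 h, against 8.61, 8.52 and 8.85 in control, a fall of 0.68 (SE 0.19, limma adjusted p = 0.0289). At 48 h it read 7.36, 7.61 and 7.83 with Aa, against 8.38, 8.54 and 8.08 in control, a fall of 0.73 (adjusted p = 0.0145). The 24 h call ended without Aa 24 h replicate 2 or control 24 h replicate 1 or 3 (0.0627 to 0.105), and the 48 h call without Aa 48 h replicate 1 (0.0606) or control 48 h replicate 2 (0.0567).

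PRMT5, the main writer of symmetric arginine dimethylation, read 10.93, 10.73 and 11.16 with Aa at 48 h, against 10.30, 10.17 and 10.50 in control, a rise of 0.62 (1.54-fold, SE 0.15, limma adjusted p = 0.0083). All 3 of its probe sets rose at 48 h, by 0.58 to 0.62, and at 24 h they read -0.13 to 0.02. PRMT1, which makes most asymmetric dimethylarginine in cells, averaged 12.04 ± 0.21 with Aa and 12.48 ± 0.20 in control at 24 h, a change of -0.44 (adjusted p = 0.114, and 0.00174 with the replicate block). At 48 h its change was -0.06. PRMT7 and PRMT9 had differences of -0.11 and -0.07 at 24 h and of -0.05 and 0.33 at 48 h and did not pass.

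Partners of these enzymes numbered 7, with 2 falls and 0 rises at 24 h, then 3 falls and 1 rise at 48 h (28.6% and 57.1% called, background 22.3% and 36.1%). Their median changes were -0.38 and -0.32, and with the replicate block 3 fell and 1 rose at 24 h (40.0% of all genes were called so). CLNS1A (pICln), which presents spliceosomal proteins to PRMT5, fell by 0.45 at 24 h and 0.42 at 48 h (limma adjusted p = 0.0135 and 0.0124). COPRS, a nuclear partner of PRMT5, rose by 0.35 at 48 h (adjusted p = 0.0258). SND1 and TDRD3, which bind methylated arginine through Tudor domains, averaged 9.20 and 4.90 with Aa and 10.16 and 5.94 in control at 48 h. Their falls at that time were 0.96 and 1.04 (adjusted p = 0.000965 and 0.0111). The CLNS1A call at 24 h ended without Aa 24 h replicate 1 or control 24 h replicate 3 (0.0549 and 0.0571), and the COPRS call without Aa 48 h replicate 2 or 3 or control 48 h replicate 1 or 2 (0.0524 to 0.0885).

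The other SETD proteins include the largest rise among the 50 genes and, after KDM1B, the largest fall. SETD6, known for methylating the NF-kB subunit RELA, read 6.36, 7.18 and 5.85 with Aa at 24 h, against 8.34, 8.41 and 8.49 in control, a fall of 1.95 (3.87-fold lower, SE 0.34, limma adjusted p = 0.00235). After 48 h it read 5.55, 6.64 and 6.67 with Aa, against 8.30, 8.49 and 8.33 in control, a fall of 2.09 (4.25-fold lower, SE 0.34, adjusted p = 0.00108). The Aa arrays spread over more than 1 log2 unit at each time, yet all were below every control array. Its dimmer probe set had differences of -0.40 and -0.57 without passing (limma adjusted p = 0.389 and 0.177). The brightest is of a kind whose name marks sequence shared between transcripts, and without such probe sets SETD6 was not called at either time (adjusted p = 0.373 and 0.172).

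SETD4 read 7.62, 6.22 and 7.42 with Aa at 24 h, against 5.55, 5.61 and 5.58 in control, a rise of 1.51 (2.84-fold, SE 0.28, limma adjusted p = 0.00366). By 48 h the gene read 7.43, 7.25 and 7.41 with Aa, against 5.75, 5.56 and 5.76 in control, a rise of 1.68 (3.20-fold, SE 0.28, adjusted p = 0.00139). Aa replicate 2 at 24 h lay between the other Aa arrays and the controls. Its dimmer probe set, with means of 4.21 to 4.68, had differences of -0.47 and -0.14 and did not pass (adjusted p = 0.0665 and 0.542). With the replicate block it fell at 24 h (adjusted p = 0.0479), against the rise of the brightest.

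SETD5 read 10.64, 10.54 and 10.72 with Aa at 24 h, against 9.94, 10.13 and 9.95 in control, a rise of 0.63 (limma adjusted p = 0.00205). A second of its 3 probe sets rose by 0.50 at 24 h (adjusted p = 0.0237), and the dimmest read 0.02 (adjusted p = 0.938). Without probe sets named as shared, that dimmest one alone is left for SETD5, and the 24 h call ended (0.933). At 48 h its change of 0.26 did not pass (adjusted p = 0.0808). SETD3, a histidine methyltransferase of actin, had differences of 0.10 and -0.11, and SETD9 had -0.11 and 0.20.

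NSDHL, which removes a methyl group on the way to cholesterol and is no histone enzyme, read 9.14, 9.05 and 9.40 with Aa at 24 h, against 9.80, 9.80 and 10.02 in control (change -0.68, SE 0.16, limma adjusted p = 0.0113). At 48 h it averaged 9.66 ± 0.12 with Aa and 9.54 ± 0.31 in control (adjusted p = 0.585). Without NSDHL the counts were 8 up and 4 down of 49 genes at 24 h, and 10 up and 8 down at 48 h.

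Windows from 250 bases before to 50 bases after the start of transcription were taken from RefSeq (GRCh38.p14) for 47 of the 50 genes. Those of KDM1B (the deepest fall), SETD6 (the next), KMT2A (a rise on several probe sets) and EZH2 (a small rise without overlap) are printed so that the start regions of genes that moved in different directions can be read side by side. Each is on its gene's strand, 5′ to 3′, in lower case. Capitals mark matches, on either strand, to TTTCCCGC or TTTGGCGC (forms of the E2F site), GGGCGG (the SP1 box), CCAAT or CCGGAAG (an ETS site).
KDM1B, chr6:18155172-18155471, plus strand: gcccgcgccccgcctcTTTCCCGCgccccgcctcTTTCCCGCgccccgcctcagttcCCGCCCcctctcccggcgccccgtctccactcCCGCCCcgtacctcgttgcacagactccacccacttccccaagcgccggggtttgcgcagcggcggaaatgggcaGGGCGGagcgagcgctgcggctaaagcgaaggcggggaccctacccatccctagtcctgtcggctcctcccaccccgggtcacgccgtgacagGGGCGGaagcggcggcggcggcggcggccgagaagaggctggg
SETD6, chr16:58515267-58515566, plus strand: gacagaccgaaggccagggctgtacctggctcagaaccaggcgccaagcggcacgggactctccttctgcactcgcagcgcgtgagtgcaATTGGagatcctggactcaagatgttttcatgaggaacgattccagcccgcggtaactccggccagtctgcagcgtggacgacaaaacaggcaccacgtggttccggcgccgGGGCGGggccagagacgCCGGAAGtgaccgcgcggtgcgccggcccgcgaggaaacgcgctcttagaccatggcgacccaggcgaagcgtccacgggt
KMT2A, chr11:118436242-118436541, plus strand: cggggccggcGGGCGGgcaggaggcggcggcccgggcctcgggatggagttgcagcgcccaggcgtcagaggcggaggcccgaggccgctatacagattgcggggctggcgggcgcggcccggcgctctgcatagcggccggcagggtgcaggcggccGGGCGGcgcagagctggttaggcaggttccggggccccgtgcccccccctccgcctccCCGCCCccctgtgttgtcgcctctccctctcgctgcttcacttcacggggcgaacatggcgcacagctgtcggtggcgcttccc
EZH2, chr7:148884242-148884541, minus strand: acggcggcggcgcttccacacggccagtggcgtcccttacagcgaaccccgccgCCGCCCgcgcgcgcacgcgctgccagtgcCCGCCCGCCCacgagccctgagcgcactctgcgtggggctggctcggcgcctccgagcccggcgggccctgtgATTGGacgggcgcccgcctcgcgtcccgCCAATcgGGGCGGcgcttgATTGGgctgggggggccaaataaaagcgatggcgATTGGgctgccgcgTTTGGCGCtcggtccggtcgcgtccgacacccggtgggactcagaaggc

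KDM1B holds TTTCCCGC at bases 17 to 24 and 35 to 42 of the window, counted from its 5′ end, and GGGCGG or its complement at 4 places. SETD6 holds CCAAT on the opposite strand at bases 91 to 95, GGGCGG at 203 to 208 and CCGGAAG at 220 to 226. KMT2A holds the SP1 box at 3 places. EZH2 holds TTTGGCGC at bases 252 to 259, the CCAAT box at 4 places and the SP1 box at 4, of which the matches at 84 to 89 and 88 to 93 overlap.

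TTTCCCGC was found in 2 of the 47 member windows (KDM1B and NSD2) and in 2.87% of the 8925 windows of genes tested. TTTGGCGC was in 1 (EZH2; 1.11% of all) and the ETS site in 6 (20.5% of all). The SP1 box was in 36 member windows (76.6%, against 71.7% of all) and CCAAT in 17 (36.2%, against 37.4%). Median GC content was 66.7% in the member windows and 65.7% in all, with a median of 30 and 27 CpG dinucleotides. A match is a description of letters in the window and not of a bound site.

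Probe sets of the same gene often differed. Of the 28 genes with several, the probe sets shared 1 sign in 14 at 24 h and 19 at 48 h. PRMT2 was the 1 gene with calls in opposite directions in limma's test without the block. With the replicate block KMT5B and SETD4 also had opposite calls at 24 h, and NSD2 at 48 h. At 48 h a PRMT2 probe set read 7.37, 7.08 and 7.15 with Aa, against 8.41, 8.28 and 8.28 in control, a fall of 1.13 (limma adjusted p = 7.01e-05). Another read 9.05, 8.60 and 8.99 with Aa, against 8.65, 8.27 and 8.44 in control, a rise of 0.43 (adjusted p = 0.0401). The brightest probe set of PRMT2 had differences of -0.38 and -0.40 (adjusted p = 0.119 and 0.0791, and 0.0484 and 0.0325 with the replicate block).

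Counting any probe set in place of the brightest, 21 of the 50 genes were called at 24 h (42%, background 30.6% by the same rule) and 25 at 48 h (50%, background 44.2%). The 50 genes have 109 probe sets, and all 10791 genes have 19623. Of these, 8 at 24 h and 7 at 48 h were called on a dimmer probe set while the brightest did not pass. Among these NSD2 shows the largest gap at 24 h: its dimmest probe set read 8.29, 8.80 and 8.10 with Aa at 24 h, against 6.39, 6.74 and 5.74 in control, a rise of 2.11 (4.31-fold, limma adjusted p = 0.000625). Its brightest had a difference of 0.22 at that time (adjusted p = 0.345). For genes with 1 probe set, such as KDM1B, PRMT3, PRMT6, KMT2B and SUV39H1, no such comparison was possible among the probe sets past the filter.

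**Figure D3:**
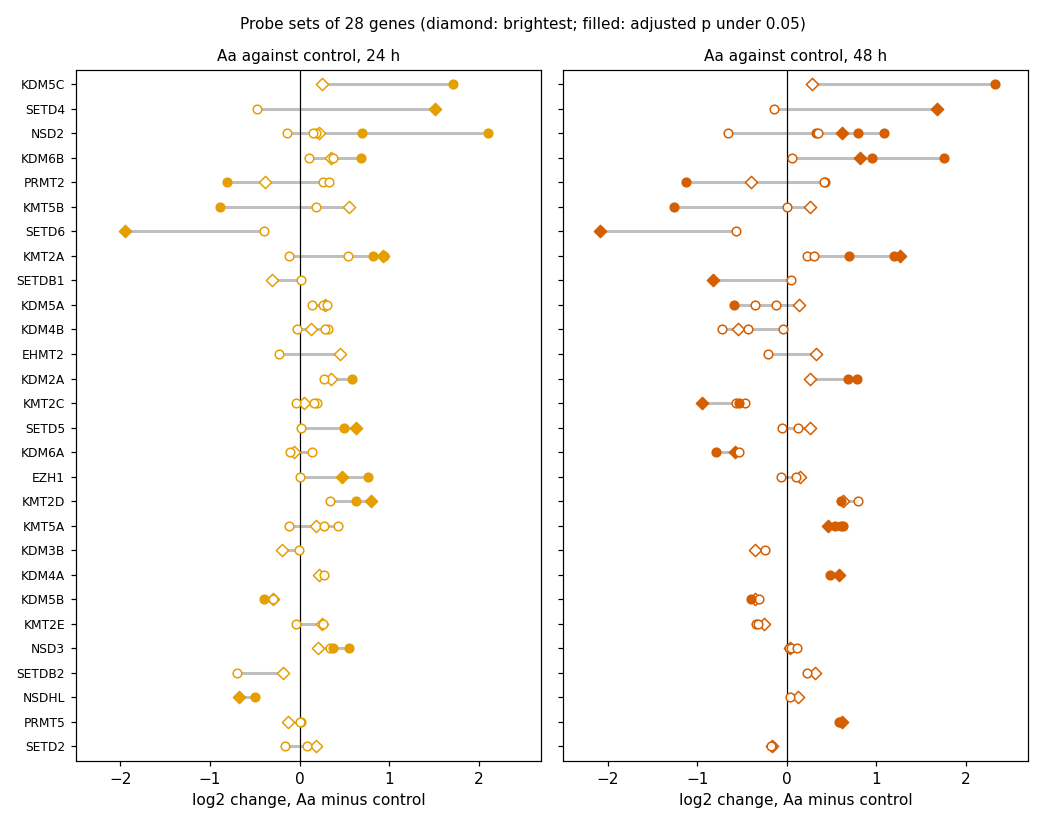
The log2 change with Aa (x axes, Aa minus control) of every probe set past the filter for the 28 genes with more than 1, at 24 h (left) and 48 h (right). Diamonds are the brightest probe set of each gene, circles the others, and filled symbols passed an adjusted p of 0.05. The widest gaps at 24 h belong to NSD2 and SETD4, and at 48 h to KDM5C and SETD4.

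Whether the effect of Aa differed between the 2 times was tested as an interaction, the 48 h change minus the 24 h change. None of the 50 genes passed in limma's test (0.463% of all genes did). Under an unadjusted p of 0.05 were 10, beside 1465 of all 10791 genes. With the replicate block 6 were called, where 9.07% of all genes were. The 6 were PRMT5, NSDHL and SUV39H1 with positive differences (0.75, 0.80 and 0.72) and KMT2C, KDM6A and KMT2E with negative ones (-1.0, -0.52 and -0.50). Their limma adjusted p ran from 0.143 to 0.366 without the block. For KMT2C it was 0.266, and 0.0148 with the replicate block, and for PRMT5 0.167, and 0.00952 with the replicate block. The 2 Aa comparisons use different control arrays. Across the 50 genes the changes at 24 h and 48 h had a Pearson correlation of 0.85 (0.80 over all genes) and a Spearman correlation of 0.65, given as a description over genes that share their arrays.

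Control cells were compared over time in the same fit. None of the 50 genes passed between control at 48 h and control at 24 h (0.120% of all genes did). Under an unadjusted p of 0.05 were 9, beside 1710 of all 10791 genes. The replicate block called 12, 3 up and 9 down (15.3% of all genes were called so). The changes ran from -0.73 (SUV39H1) to 0.63 (KMT2C). Their limma adjusted p was 0.187 and 0.273, and 0.00659 and 0.0131 with the replicate block. EZH2 averaged 9.87 ± 0.05 in control cells at 48 h and 10.18 ± 0.06 at 24 h, a change of -0.31 (limma adjusted p = 0.166, and 0.0198 with the replicate block). These 3 genes had changes with Aa at 48 h of 1.18, -0.95 and 0.27, and the 48 h comparison shares its control arrays with the comparison over time.

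The longest members had negative changes at 48 h. Gene spans from RefSeq (GRCh38.p14) ran from 2.6 to 301.1 kb with a median of 55.5 kb, where the median of all 10791 genes was 30.5 kb. The 5 members over 150 kb were KMT2C, KDM6A, EHMT1, KDM4B and KDM2B. Their changes at 48 h were all negative, with a median of -0.54, and 3 of the 5 fell by the test. Of all genes of any length 19.1% fell at 48 h, and the share among long genes was not counted. At 24 h their median was 0.06 and none passed. Over all 1075 genes of that length the medians were -0.52 at 48 h and -0.20 at 24 h.

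The 23 members of up to 50 kb had a median of 0.20 at 48 h (0.07 for 7019 such genes), and the 22 between had 0.10 (-0.05 for 2688). The Spearman correlation of span with change was 0.08 at 24 h, -0.34 at 48 h and -0.55 for the difference of the 2 effects, over 50 genes measured on the same arrays. Over all genes it was -0.02 at 24 h and -0.20 at 48 h, and it was not computed for the difference. PRMT3, KDM1B, SETD6 and PRMT6, which fell at both times, span 121.6, 68.4, 8.4 and 2.6 kb. Whether span bears on any of these changes was not tested.

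**Figure D4:**
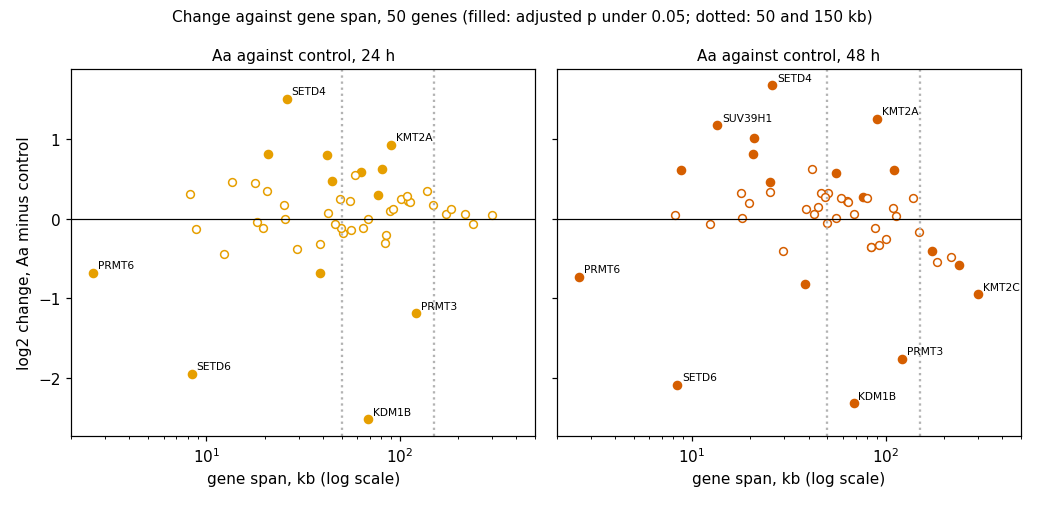
The log2 change with Aa (y axis, Aa minus control) against gene span in kb (x axis, log scale) for the 50 genes at 24 h (left) and 48 h (right). Filled points passed an adjusted p of 0.05, and dotted lines mark 50 and 150 kb. At 48 h all 5 genes to the right of 150 kb lie below 0, and at 24 h they lie near 0.

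Other histone methyltransferases and demethylases that the symbol rule does not take counted 16 genes, with 3 falls and 0 rises at 24 h and 2 falls and 1 rise at 48 h (18.8% called at each time, background 22.3% and 36.1%). Their median changes were 0.04 and 0.03. With the replicate block there were 3 falls and 2 rises at 24 h, then 5 falls and 3 rises at 48 h (background with the block 40.0% and 53.3%). SMYD3, a lysine methyltransferase of the SET and MYND family, read 6.25, 8.09 and 6.21 with Aa at 24 h, against 9.44, 9.48 and 9.42 in control, a fall of 2.60 (limma adjusted p = 0.0234). After 48 h it read 4.72, 7.62 and 4.70 with Aa, against 9.69, 9.88 and 9.61 in control, a fall of 4.05 (adjusted p = 0.0017). Aa replicate 2 lay nearest the controls at both times. Without it SMYD3 fell by 3.22 at 24 h (adjusted p = 0.0102) and by 5.02 at 48 h (adjusted p = 7.33e-05). The 24 h call ended without any one of the other 5 arrays of that time (0.0594 to 0.0877). SMYD2 of the same family fell by 0.89 and 0.97 (adjusted p = 0.00239 and 0.00099). PRDM4, a zinc finger protein with a SET-like domain, rose by 0.52 at 48 h (adjusted p = 0.017). NDUFAF7, which fell by 0.44 at 24 h (adjusted p = 0.0404), methylates a mitochondrial complex I subunit and not histones. The PRDM4 call ended without Aa 48 h replicate 3 or control 48 h replicate 2 (0.0688 and 0.0608). The NDUFAF7 call ended without any one Aa 24 h array, control 24 h replicate 2 or 3, or Aa 48 h replicate 1 or 3 (0.0502 to 0.148).

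Partners of the lysine erasers and the H3K9 writers counted 16 genes, with 2 rises and 0 falls at 24 h, then 2 rises and 3 falls at 48 h (12.5% and 31.2% called, background 22.3% and 36.1%). Their median changes were -0.03 and 0.06. With the block these were 3 rises and 3 falls at 24 h, then 5 rises and 3 falls at 48 h (background with the block 40.0% and 53.3%). CBX5, a heterochromatin protein that binds methylated H3K9, rose by 0.52 at 24 h and 0.35 at 48 h (limma adjusted p = 0.00844 and 0.0366), and the 48 h call ended without any one Aa 48 h array or control 48 h replicate 1 or 3 (0.0598 to 0.122). PHF21A, the subunit of the KDM1A complex that binds unmethylated H3K4, fell at 48 h by 0.90 (adjusted p = 0.00264). ZMYM2 and ZNF644, zinc finger proteins of the KDM1A and EHMT complexes, fell at 48 h by 0.53 and 0.41 (adjusted p = 0.00862 and 0.0097).

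The S-adenosylmethionine cycle had 13 genes measured, with 2 falls and 0 rises at 24 h, then 2 falls and 1 rise at 48 h (15.4% and 23.1% called, background 22.3% and 36.1%). Their median changes were 0.14 and 0.06. The replicate block gave 3 falls and 3 rises at 24 h, then 4 falls and 3 rises at 48 h (background with the block 40.0% and 53.3%). MTR, the methionine synthase that returns homocysteine to methionine, averaged 8.90 with Aa and 9.70 in control at 24 h, and 8.99 with Aa and 9.98 in control at 48 h. Its falls were 0.80 and 0.98 (limma adjusted p = 0.00385 and 0.000868). CBS, which draws homocysteine into cysteine synthesis, fell by 1.02 at both times (adjusted p = 0.00211 and 0.0014). MTRR, which reactivates MTR, rose by 0.32 at 48 h (adjusted p = 0.0353), a call that ended without any one Aa 48 h array or control 48 h replicate 1 or 2 (0.0509 to 0.125). MTHFD1, a folate enzyme that supplies methyl groups, had differences of -0.34 and -0.31 and did not pass (adjusted p = 0.0575 and 0.0569), but with the replicate block it fell at both times (0.00678 and 0.00694). MAT2A, which makes S-adenosylmethionine, had differences of 0.14 and 0.07 and did not pass.

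The annotation holds 180 probe sets and 60 symbols that start with these letters, and 71 probe sets lay below the filter. In all, 10 symbols had no probe set above it: KDM4C, KDM4D, KDM5D, NSD1, PRMT8, SETD1A and the noncoding EHMT1-IT1, KDM7A-DT, KMT2E-AS1 and PRMT5-AS1. Just inside the filter were probe sets of KDM6B (mean 4.06), EZH1 (4.30), KDM7A (4.39) and KDM8 (4.40), and just outside were those of SETD1A (3.94), EHMT1 (3.72 and 3.67) and NSD1 (3.64). The 10 symbols below the filter were not tested with the members.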

How the data were processed

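The 12 arrays were deposited as 1 table of 54675 probe sets. Its values are log2 intensities, made by the authors with GCRMA per the submitters' processing notes (no version given); they run from 0.82 to 16.25. Genes came from the array annotation, with symbols updated by gene identifier. Probe sets with 1 gene and a mean log2 of at least 4 were kept (47.7% of 41097). In R 4.3.3, limma 3.58.1 (lmFit, then eBayes without trend) fitted the 4 group means over all 12 arrays (8 residual and 2.77 prior degrees of freedom). P-values were two-sided and Benjamini-Hochberg adjusted over all 19623 probe sets, with calls under 0.05. The script was tested on simulated data. The number of arrays limits the precision.

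Replicate numbers from the labels paired the samples: deviations from group means correlated at 0.37 to 0.60 in the 18 pairs with the same number and at -0.49 to -0.03 in the other 36, and all 12 arrays were closest to their own number. Deviations from a group mean cancel out within the group, so positive correlations in the first set bring negative ones in the other by construction. Because of the pairing, values with the number as a block are printed beside each value given in the text whose call they change. The members and gene lists were chosen with earlier results of these data known. Full statistics were given for genes called on their brightest probe set, for genes with opposite calls, and for up to 4 genes per role or partner list with the smallest p. Alternatives covered the filter, normalization, probe set choice, the fit and left-out arrays. KDM5D, which is Y-linked, is given with no level.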

Additional observations from a re-analysis of the deposited data

Results flagged for a closer look

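NSD1, which dimethylates H3K36 like NSD2 and NSD3, was not among the members because its 4 probe sets have means below 4. In a fit without that filter 1 of them, whose level is low, averaged 3.21 with Aa and 2.96 in control at 24 h, a change of 0.25 (limma adjusted p = 0.00722). It drew attention as a difference in data that the comparisons leave out. At 48 h the same probe set averaged 2.92 with Aa and 2.95 in control (adjusted p = 0.823). The other 3 NSD1 probe sets had differences of -0.05 to 0.07 at 24 h, with adjusted p = 0.624 to 0.735.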

How the results depend on the processing

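Of the 31 gene calls, 8 held under every alternative run: KDM1B and KMT2A at 24 h, and SETD4, KMT2A, KDM1B, PRMT3, SETDB1 and KDM6A at 48 h. The other 23 were lost under at least 1, and none changed direction. Leaving out single arrays ended 11 calls. All fits with arrays left out were made without the replicate block, so how these calls fare with it was not tested. Leaving out arrays, singly or 1 number from all groups, gave 3 to 13 genes called at 24 h (1 to 8 up, 2 to 5 down) and 8 to 20 at 48 h (3 to 10 up, 5 to 10 down). It gave 0 to 1 for the interaction (0 to 1 up) and 0 for control cells over time. With the replicate block, 22 genes were called at 24 h (13 up, 9 down) and 26 at 48 h (13 up, 13 down), where 40.0% and 53.3% of all genes were. The block gave 6 for the interaction (3 up, 3 down) and 12 for control cells over time (3 up, 9 down). It added 9 gene calls at 24 h and 8 at 48 h and ended none. Without the filter, or with only the arrays compared, 5 genes rose at 24 h. Without the filter the calls of KMT2B, KMT2D, EZH1 and PRMT6 at 24 h and of KDM2B at 48 h ended. With only the arrays compared those of KMT2D, EZH1, EZH2 and PRMT6 at 24 h and of KMT2B, EZH2 and KDM2B at 48 h ended. Without probe sets named as shared, those of SETD5 at 24 h and SETD6 at both times ended. This alternative could not be run for KDM6A, EZH2, SUV39H1 and KDM2B, which have only such probe sets past the filter. A filter at a mean log2 of 6 left out KDM1B. The mean of probe sets ended KMT2D, a trended robust fit EZH1 (both at 24 h), and centring on the median KDM2B at 48 h. At an adjusted p under 0.01, 7 genes were called at 24 h (4 up, 3 down) and 9 at 48 h (4 up, 5 down). The cause of these shifts was not tested beyond what fewer arrays, more probe sets or a stricter threshold give by construction. Probe sets near background limit what can be said of KDM7A, KDM8 and the Aa level of KDM1B.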
